A study of Homo sapiens with 6 samples.

Results

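AP-1 is a transcription factor built from pairs of leucine zipper proteins, and the 10 genes described here encode the subunits of its FOS branch (FOS, FOSB, FOSL1 and FOSL2), its JUN branch (JUN, JUNB and JUND) and its BATF branch (BATF, BATF2 and BATF3). They were taken by gene symbol, as all probe sets annotated to exactly 1 of these symbols, and the family itself was picked with earlier results of these data known. All 10 of the 18132 genes with a probe set of their own were found, with 27 of the 49293 probe sets tested. Each probe set is a cluster of short oligonucleotides on the array that together capture 1 part of a transcript. The RNA came from MDA-MB-231, a human breast cancer cell line of the triple negative type, grown in DMEM with fetal bovine serum. Cells that stably carried a negative control lentivirus (NC, 3 samples) were set beside cells that stably carried a lentivirus with the full-length CTCF coding sequence (CTCF-OE, 3 samples), each sample on 1 Affymetrix PrimeView array. Neither the promoter that drives the transgene nor whether the stable cells were a pool or 1 clone is given in the sources used here.

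FOS proteins bind DNA only as partners of JUN proteins, whereas JUN proteins also pair among themselves and with ATF proteins. The pairs bind the TRE, with the letters TGACTCA, and the related CRE, with the letters TGACGTCA. FOS, FOSB and JUNB are immediate early genes, switched on within minutes by growth factors and stress through ERK, JNK and p38 kinases, and their products in turn drive genes of proliferation, invasion and inflammation. BATF proteins lack the activation domain of FOS and, with a JUN partner, recruit IRF4 or IRF8 in immune cells. In triple negative breast cancer cells FOSL1 is known as a prominent subunit that accompanies a mesenchymal, invasive state. The question put to the arrays was whether the transcripts of these subunits differed between the 2 groups of cells.

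Several of these genes carry, just before their start, letters that AP-1 and CREB family proteins can bind. RefSeq promoter windows, from 250 bases before to 50 bases after the start on GRCh38.p14, were at hand for 8 of the 10 genes, all but FOSL1 and BATF3. The 250 bases before the start are shown for the JUN branch and for the FOS genes, 5′ to 3′, because the differences described further on lie in these genes and because FOS, FOSB, FOSL2 and JUN carry related letters at a like distance from the start. Capitals mark TGACGT, TGACGTCA, TGACATCA and TATAAA on either strand.
FOS (chr14:75278578-75278827, plus strand): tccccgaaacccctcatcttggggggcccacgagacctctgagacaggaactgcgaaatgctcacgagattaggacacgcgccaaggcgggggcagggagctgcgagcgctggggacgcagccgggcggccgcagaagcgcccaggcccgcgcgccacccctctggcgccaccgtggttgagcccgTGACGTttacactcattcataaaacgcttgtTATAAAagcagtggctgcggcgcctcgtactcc
FOSB (chr19:45467746-45467995, plus strand): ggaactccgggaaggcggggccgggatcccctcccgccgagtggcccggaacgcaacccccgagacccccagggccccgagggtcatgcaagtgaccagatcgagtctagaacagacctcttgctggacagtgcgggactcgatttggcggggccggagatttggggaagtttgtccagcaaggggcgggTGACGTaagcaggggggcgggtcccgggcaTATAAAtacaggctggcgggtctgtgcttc
FOSL2 (chr2:28392608-28392857, plus strand): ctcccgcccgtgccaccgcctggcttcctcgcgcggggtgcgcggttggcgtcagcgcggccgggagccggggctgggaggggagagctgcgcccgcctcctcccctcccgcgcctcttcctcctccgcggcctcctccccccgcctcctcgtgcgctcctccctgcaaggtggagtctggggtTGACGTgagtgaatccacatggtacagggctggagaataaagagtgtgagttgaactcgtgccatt
JUN (chr1:58784048-58784297, minus strand): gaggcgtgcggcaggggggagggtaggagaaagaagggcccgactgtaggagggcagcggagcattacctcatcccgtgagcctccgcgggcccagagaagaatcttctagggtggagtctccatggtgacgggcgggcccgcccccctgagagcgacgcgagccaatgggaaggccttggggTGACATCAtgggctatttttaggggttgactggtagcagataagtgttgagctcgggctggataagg
JUNB (chr19:12791236-12791485, plus strand): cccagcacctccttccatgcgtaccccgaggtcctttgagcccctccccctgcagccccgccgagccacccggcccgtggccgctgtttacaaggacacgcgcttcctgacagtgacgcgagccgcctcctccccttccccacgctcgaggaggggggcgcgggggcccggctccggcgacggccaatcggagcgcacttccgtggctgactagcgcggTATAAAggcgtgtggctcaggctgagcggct
JUND (chr19:18281623-18281872, minus strand): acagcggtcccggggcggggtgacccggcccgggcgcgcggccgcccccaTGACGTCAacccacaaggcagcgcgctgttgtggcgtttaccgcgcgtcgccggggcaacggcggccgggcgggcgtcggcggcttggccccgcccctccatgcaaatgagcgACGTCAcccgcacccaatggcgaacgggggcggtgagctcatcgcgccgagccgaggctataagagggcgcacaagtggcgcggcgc

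The core TGACGT, searched on both strands and contained in TGACGTCA, was found in 4 of the 8 windows and in 7.98% of 35116 promoter windows of the same length. It began at -64 in FOS, -60 in FOSB and -66 in FOSL2, counted from the start. In JUN the variant TGACATCA began at -67, and it was found again in the BATF2 window at -132, against 2.61% of all windows. The BATF2 window (chr11:64990278-64990527, minus strand) lies within the span of that gene (64987945 to 64996971). Its start is therefore not the outer end of BATF2. JUND had the full TGACGTCA at -200, found in 1.85% of windows, and TGACGT on the opposite strand from -87 to -82. FOSL2 was the only one of the 8 with TGACTCA, at position 5 after the start, against 4.95% of all windows. TATAAA was found in FOS, FOSB and JUNB, against 11.5% of windows, and the CArG box to which SRF binds in none of the 8, against 1.29%. The letters AGNNGGC, where N is any base, were in 6 of the 8 windows and in 64.2% of all windows. They are a loose form of the core of the CTCF consensus. JUN and JUNB differed from the other windows of the JUN and FOS branches in having no TGACGT. These are matches of letters within a short window and say nothing of what is bound there. Sites farther from the start, a CArG box among them, were not searched.

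Before the results, the transgene and the arrays were checked. The only probe set of CTCF was at 463, 442 and 489 in NC, compared with 398.5, 387.5 and 398.9 under the CTCF-OE label, so it did not read higher under that label (log2 fold change -0.23, standard error 0.047, adjusted p = 0.0639). Whether this probe set reads the transgene is not given in the sources used here, so a direction given here always follows the labels. The study also assayed CTCF protein by Western blotting, which is not analysed here. Array medians lay between 83.3 and 84.5. The line's markers VIM, CD44, AXL, EGFR and CAV1 stood between the 82.8th and the 99.9th percentile of all probe sets. PGR and CDH1 stood at the 6.28th and 17.4th and ESR1 at the 43.2nd, whereas GATA3 and EPCAM, which were listed as low, stood at the 75.6th and 80.6th. Of 6 markers of other cells, PTPRC was at the 3.26th percentile, DCN at the 16th, COL1A1 at the 35.1st and CD3E at the 36.4th. PECAM1 was at the 55.5th and CD68, which tumour cells can also express, at the 86.2nd. EGFR was the only 1 of these 16 markers to pass the test (log2 fold change -0.38, adjusted p = 0.0182). Between the groups, 9 probe sets for control RNAs added before hybridization differed by -0.09 to -0.01 on the log2 scale, all of them lower in the arrays labelled CTCF-OE, and 5 for ribosomal RNA by -0.38 to -0.16. Their part in the changes described here was not tested. The arrays read RNA of a whole culture, so fewer cells expressing a gene and less RNA per cell cannot be told apart.

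AP-1 subunit transcripts tended to read lower in the arrays labelled CTCF-OE, by small amounts. Of the 27 probe sets, 26 had a log2 fold change below 0, against 49.9% of all probe sets, and their median was -0.08, against 0.00025 for all. The test was limma on log2(intensity + 1) over all probe sets with Benjamini-Hochberg adjustment, and a probe set passed at an adjusted p under 0.05. By this rule 1 of the 27 fell, a probe set of FOSL2, and 0 rose, while 1.27% of all probe sets were lower and 0.803% higher. None of the 27 both passed and was beyond the 1.3-fold change that the study's methods ask for, as 0.446% of all probe sets did in the lower direction. The study's methods state no adjustment for the number of probe sets, so the study's full rule was not the one applied here. JUNB, 1.33-fold lower, was beyond that fold change without passing here, and it is among the genes that the study picked. At an unadjusted p under 0.05, 11 of the 27 were lower, against 8.85% of all, and 1 was higher, against 4039 of all 49293. In 14 of the 27 the 3 values of the arrays labelled CTCF-OE all lay below the 3 NC values, against 12.8% of all probe sets, and in 1, of FOSB, all above, against 11.6%. Probe sets of 1 gene read the same transcripts, so these 27 are not independent of each other. Some carry a suffix, _s_at or _x_at, that marks probes which can also match other transcripts, among them the only probe sets of JUNB and JUND and the brightest of FOS, FOSB and FOSL1. Among the 15 without such a suffix, 7 were lower without overlap, against 12.4% of all probe sets without one.

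**Figure D1:**
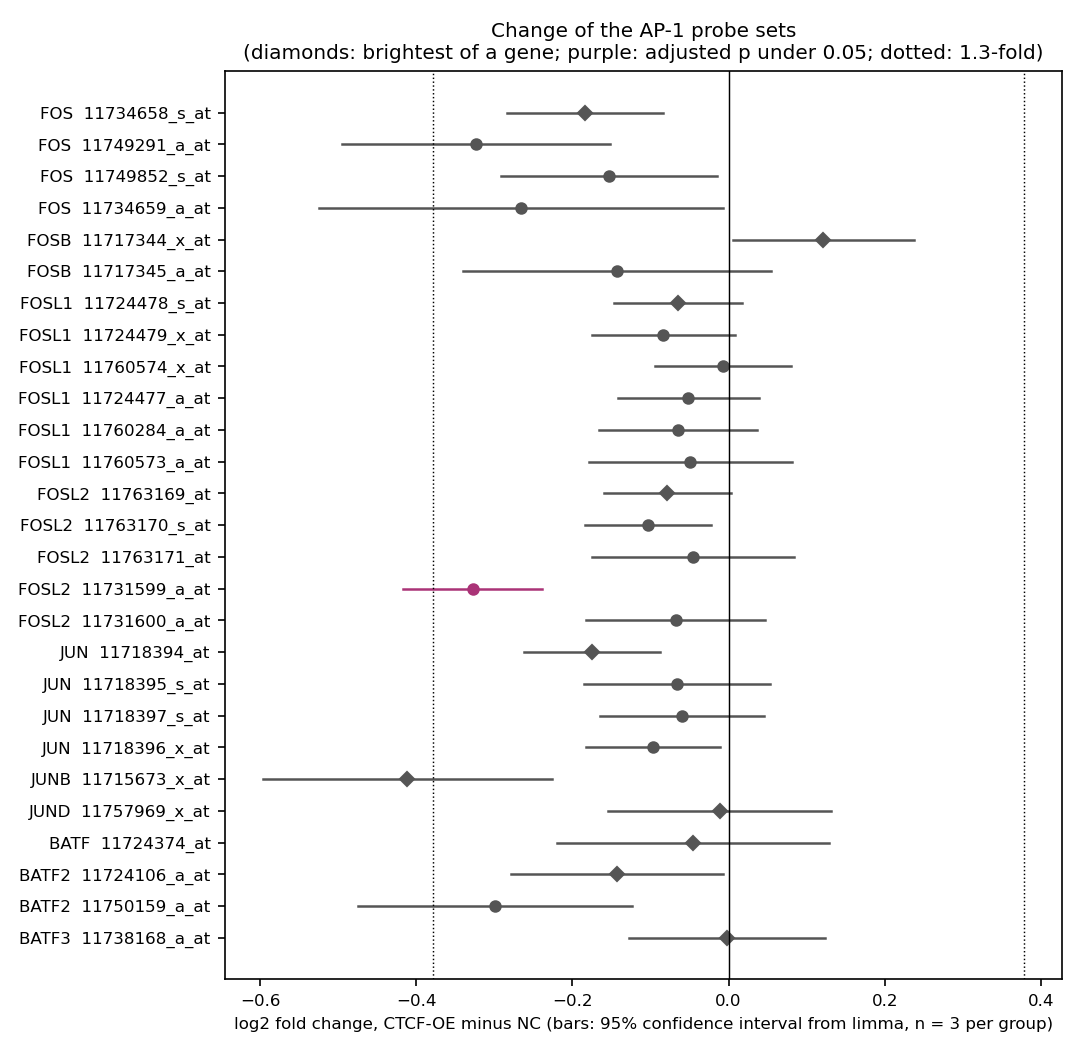
Log2 fold change (CTCF-OE minus NC, horizontal axis) of the 27 probe sets of the 10 AP-1 genes, with 95% confidence intervals from limma and 3 arrays per group. JUNB lies farthest to the left at -0.41, FOSB has the only point to the right of 0 at 0.12, and a probe set of FOSL2 at -0.33 is the only one that passed the test.

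Counted by gene, with the probe set of highest mean intensity standing for each, 0 of the 10 genes passed in either direction in limma, against 1.4% of all genes lower and 0.734% higher. At an unadjusted p under 0.05, 5 of the 10 were lower, namely JUNB, FOS, JUN, BATF2 and FOSL2, against 9.29% of all genes. In the other direction 1, FOSB, was higher, against 1438 of all 18132 genes. The median over the 10 genes was -0.07, and that over all genes 0.00021.

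**Figure D2:**
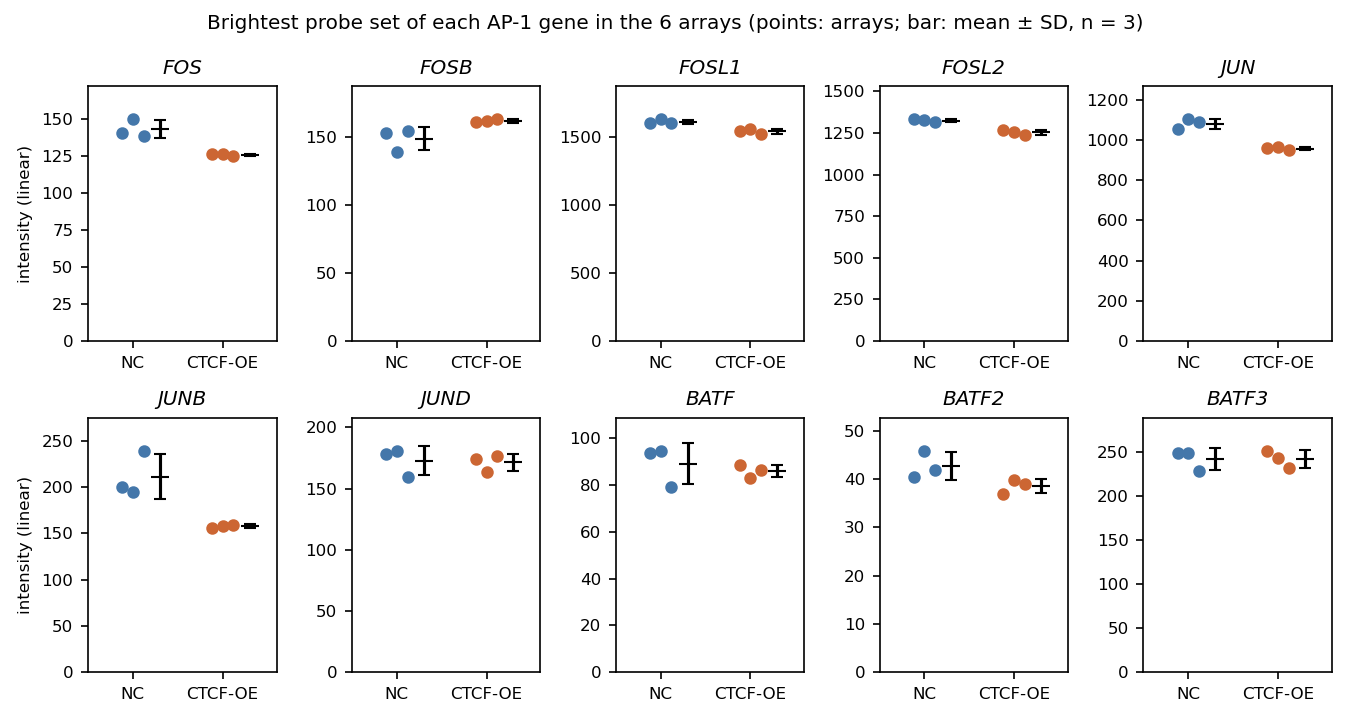
Intensity on a linear scale in each of the 6 arrays at the brightest probe set of each AP-1 gene, with the mean and SD of each group (n = 3). The groups are apart for JUNB, FOS, JUN, FOSL1, FOSL2 and BATF2, with the arrays labelled CTCF-OE lower, and for FOSB with them higher, and they overlap for JUND, BATF and BATF3. Of all probe sets, 12.8% were apart with those arrays lower and 11.6% with them higher. The share among brightest probe sets alone is not given.

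JUNB, the JUN branch subunit that can restrain JUN as well as act in its place, differed most among the AP-1 genes. It lies on chromosome 19 (GRCh38.p14, 12791486 to 12793315) and was read by 1 probe set, of the _x_at kind, at 199.7, 194.5 and 239 in NC against 155.9, 158.3 and 159.2 under the CTCF-OE label. The groups did not overlap, and the NC arrays were far more spread (211 ± 24.3, SD, n = 3) than the others (158 ± 1.72, SD, n = 3), as the third NC array stood above the remaining ones. JUNB was 1.33-fold lower under the CTCF-OE label, with a log2 fold change of -0.41, a standard error of 0.078 and a 95% interval from -0.60 to -0.23. Its adjusted p of 0.0533 in limma missed the threshold. The same difference passed with a larger pseudocount of 16 (0.0209), after quantile normalization (0.0459), when dim probe sets were left out (0.0381 and 0.0107), with an intensity trend in the variance (0.00262) and without the third NC array, where it was -0.32 (0.042). It did not pass with no pseudocount (0.0593), with median centring (0.0624), or when any other array was left out (0.0777 to 0.177). JUNB is also among the genes that the study picked from these same arrays, so its direction here is no independent evidence.

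JUN, the founding subunit and a possible partner of FOS proteins, was read by 4 probe sets. The brightest gave 1054, 1104 and 1088 in NC against 961, 964 and 948.5 under the CTCF-OE label. Every CTCF-OE value lay below every NC value, by more than the spread within either group (1082 ± 25.9 against 958 ± 8.35, SD, n = 3). The log2 fold change was -0.18 (standard error 0.037, 95% interval -0.26 to -0.09), which did not pass (adjusted p = 0.0709 in limma). It passed with a pseudocount of 16 (0.024), with either filter on dim probe sets (0.0428 and 0.0107) and with the intensity trend (0.00186). It did not pass with no pseudocount (0.0763), after quantile normalization (0.069) or with median centring (0.082). Nor did it with the replicate block (0.186) or when any 1 array was left out (0.117 to 0.225). Another probe set of JUN, of the _x_at kind, gave 436.5, 449.6 and 436.3 against 406, 419 and 412, again without overlap (-0.10, adjusted p = 0.246). The other 2 gave -0.07 and -0.06, with groups that overlapped, and all 4 probe sets of JUN had the same sign. The mean over the 4 was -0.10 and did not pass (adjusted p = 0.142 in limma).

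JUND, the subunit most steadily present in resting cells, was read by 1 probe set, also of the _x_at kind, at 178, 181 and 159 in NC against 174, 164 and 176 under the CTCF-OE label. The groups overlapped, and the difference of -0.01 (standard error 0.060, 95% interval -0.15 to 0.13, adjusted p = 0.949 in limma) changed sign when single arrays were left out. The interval leaves room for a change of JUND of up to that size in either direction.

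FOS, the immediate early gene best known as a read-out of ERK signaling, lies on chromosome 14 (75278828 to 75282230) and was read by 4 probe sets, of which the brightest stood at the 58.6th percentile of all probe sets. At the brightest, NC gave 141, 149.8 and 138.5, and CTCF-OE gave 126, 126 and 125. The second gave 60.6, 59.3 and 52.8 in NC against 48.2, 42 and 47.2. The groups did not overlap in either, with log2 fold changes of -0.18 (standard error 0.042, 95% interval -0.28 to -0.08, adjusted p = 0.0875 in limma) and -0.32 (standard error 0.073, adjusted p = 0.0832). Another read 50.5, 48.8 and 53.6 against 43, 45.5 and 48.6, a difference of -0.15 (adjusted p = 0.253). In the dimmest, at 37.9, 49.7 and 46.4 against 38.8, 33 and 38.7, the groups overlapped, and the difference was -0.27 (adjusted p = 0.283). The brightest passed with a pseudocount of 16 (0.0416), without probe sets under the median intensity (0.0166) and with the intensity trend (0.0489). It did not pass with no pseudocount (0.093), after quantile normalization (0.0906), with median centring (0.0869) or without the dimmest 20% (0.0577). Nor did it with the replicate block (0.186) or when any array was left out (0.111 to 0.245). The second passed with that pseudocount (0.0419) and the trend (0.032). Under each of the settings that the brightest missed, the second did not pass either (0.06 to 0.214). The mean over the 4 probe sets of FOS was -0.23 and passed (adjusted p = 0.0404).

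FOSB, a further immediate early gene and close relative of FOS, gave opposite signs at its 2 probe sets. The brighter read 153, 139 and 154 in NC and 160.5, 161 and 163 under the CTCF-OE label, the only probe set among the 27 with all CTCF-OE values above NC. The log2 fold change there was 0.12 (standard error 0.049, 95% interval 0.01 to 0.24) and did not pass (adjusted p = 0.277 in limma). The dimmer read 48.5, 57.2 and 48.3 against 43.9, 50.5 and 44.7, with groups that overlapped and a difference of -0.14 (adjusted p = 0.442). No direction for FOSB can be given from these probe sets, whose mean was -0.01.

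FOSL1, the FOS branch subunit tied to the invasive state of this kind of cell, was read by 6 probe sets. The brightest gave 1604, 1632 and 1603 in NC against 1545, 1559 and 1524 under the CTCF-OE label. These groups did not overlap, yet the difference was small, at -0.06 (standard error 0.035, 95% interval -0.15 to 0.02, adjusted p = 0.402 in limma). The 6 probe sets of FOSL1 ranged from -0.08 to -0.01, and 3 of them had groups that did not overlap. None passed the test. The added control RNAs differed by -0.09 to -0.01, a range that also holds the median of all 27 AP-1 probe sets (-0.08). The part of the controls in these differences was not tested.

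FOSL2, a relative of FOSL1 on chromosome 2 (28392858 to 28417317), held the only probe set that fell. This was the fourth in brightness of its 5 probe sets, at 469.8, 447 and 464.5 in NC against 361, 369.8 and 369 under the CTCF-OE label. The gap between the groups was several times the spread within them (460.5 ± 11.8 against 367 ± 4.59, SD, n = 3). The log2 fold change was -0.33 (standard error 0.038, 95% interval -0.42 to -0.24), a 1.26-fold decrease that passed in limma (adjusted p = 0.0122). With 1 array left out the value stayed between -0.35 and -0.31, but the call was lost without the first NC array (adjusted p = 0.0575) and without array 1, 2 or 3 labelled CTCF-OE (0.0743, 0.0689 and 0.0705).

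The other probe sets of FOSL2 moved far less. The brightest gave 1333, 1327 and 1315 in NC against 1266, 1259 and 1238, without overlap (-0.08, standard error 0.034, adjusted p = 0.308 in limma). The next gave 1138, 1157 and 1163 against 1077, 1063 and 1079, also without overlap (-0.10, adjusted p = 0.197). The remaining ones, with groups that overlapped, gave -0.05 and -0.07. The fall at the fourth exceeded that at the brightest probe set by -0.25 on the log2 scale, a gap that was noticed in the data and has no test. The probe sets disagree on how far FOSL2 fell, and their mean was -0.12 (adjusted p = 0.0764).

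**Figure D3:**
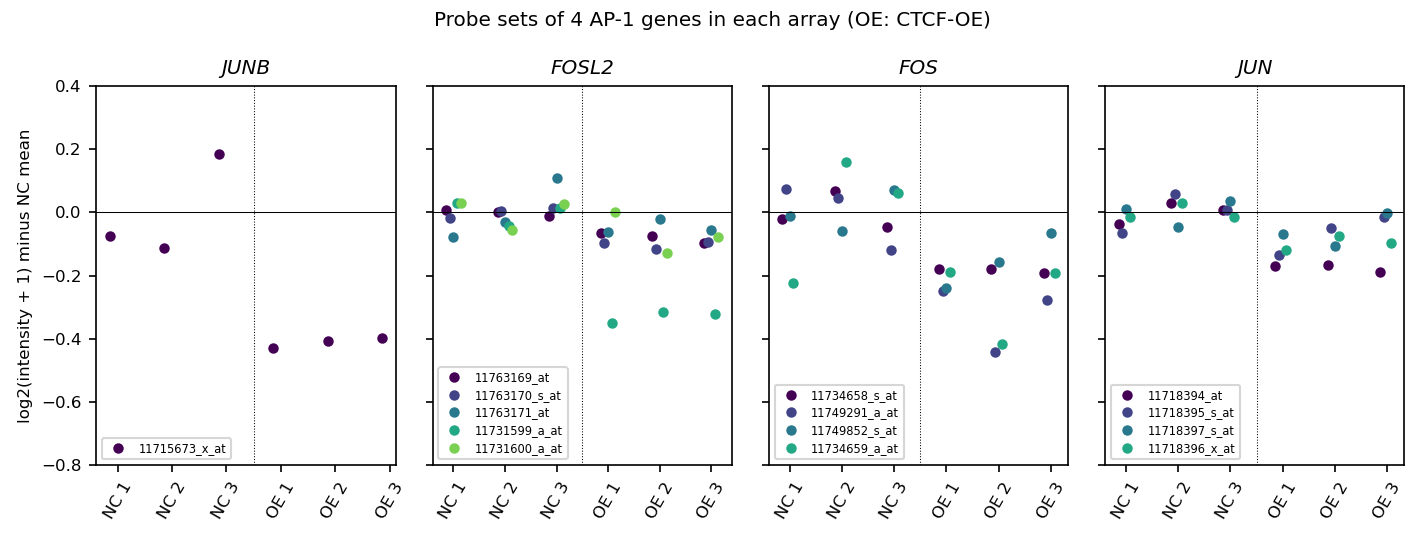
Every probe set of JUNB, FOSL2, FOS and JUN in each of the 6 arrays, as log2(intensity + 1) minus the mean of the 3 NC arrays (vertical axis, log2 units). NC array 3 of JUNB lies above the rest of its group, and in FOSL2 the points of the fourth probe set in the key lie apart from those of the other 4 probe sets in all 3 arrays labelled CTCF-OE.

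The BATF branch, whose best known roles are in lymphocytes and dendritic cells, gave no probe set that passed. BATF read 93.3, 94.5 and 78.9 in NC against 88.3, 83 and 86.3 under the CTCF-OE label, with groups that overlapped (-0.05, 95% interval -0.22 to 0.13, adjusted p = 0.802 in limma). BATF3 read 249.6, 249.7 and 228.5 against 251.7, 243 and 232 and overlapped as well, with a difference of -0.0024 that changed sign after quantile normalization or median centring. For BATF3 the 95% interval ran from -0.13 to 0.12.

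BATF2 was the exception within its branch, being lower without overlap at both of its probe sets, though both are dim. The brighter, at the 36.8th percentile of all probe sets, gave 40.3, 45.8 and 41.9 against 36.9, 39.8 and 38.9 (-0.14, adjusted p = 0.276 in limma). The dimmer, at the 8.32nd percentile, gave 10.7, 11.5 and 9.38 against 7.84, 8.65 and 8.55 (-0.30, adjusted p = 0.105). Whether intensities this low exceed background was not tested, and neither difference passed.

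Whether close relatives changed by different amounts was tested for 5 pairs of genes, on the difference of their log2 values within each array. JUNB differed from JUN by -0.24 (standard error 0.094), from JUND by -0.40 (standard error 0.155) and from FOSL1 by -0.35 (standard error 0.0996), and FOS from FOSB by -0.31 (standard error 0.082). In each of these 4 pairs the 3 arrays of one label lay wholly to one side of the other, which gave a two-sided exact permutation p of 0.1, the smallest that 3 against 3 arrays allow, and an adjusted p of 0.125. FOSL1 and FOSL2 differed by 0.01 (standard error 0.011, exact permutation p = 0.2, adjusted p = 0.2). These values rest on the brightest probe set of each gene. With the mean over a gene's probe sets, JUNB differed from JUN by -0.31, from JUND by -0.40 and from FOSL1 by -0.36. FOS then differed from FOSB, whose 2 probe sets had opposite signs, by -0.22, and FOSL1 from FOSL2 by 0.07. No pair could therefore have passed a threshold of 0.05 at this number of arrays.

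Around the subunits, transcripts were counted in 4 lists of genes drawn from textbook knowledge. The lists were chosen with earlier results of these data known, so their counts are no independent evidence. ATF3, IL6 and DUSP1 are, like JUNB, among the genes that the study picked from these same arrays. Among 8 measured bZIP partners outside the FOS, JUN and BATF branches, 1 fell and 0 rose, against 1.4% and 0.734% of all genes, with a median of -0.05. The one that fell was ATF3, a stress-induced partner of JUN, which read 251.8, 247 and 263 in NC against 161.5, 139.7 and 143 under the CTCF-OE label. Its difference of -0.78 on the log2 scale (adjusted p = 0.0032 in limma, standard error 0.061) was smaller in the mean over its probe sets, at -0.43 (adjusted p = 0.00339). MAFF, a small MAF protein, gave -0.28 and did not pass (adjusted p = 0.0756).

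The kinases and SRF module that switch on FOS and JUN transcripts, with 18 genes measured, had 0 that fell and 0 that rose in limma, against the same shares of all genes, and 1 lower at an unadjusted p under 0.05, against 9.29%. Their values ran from -0.13 to 0.10, with a median of 0.01. Of 9 genes for the turnover of AP-1 proteins and for BATF cofactors, which include FBXW7 and COP1, ubiquitin ligase subunits that direct JUN to degradation, 0 passed in either direction and 0 did so at an unadjusted p under 0.05, with values between -0.04 and 0.08. The arrays read transcripts only, and the phosphorylation that governs these kinases and JUN was not measured.

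Of 29 measured genes known as AP-1 targets, 4 fell and 2 rose, against 1.4% and 0.734% of all genes, with a median of -0.01 against 0.00021 for all genes. IL6, an inflammatory cytokine, read 2502, 2513 and 2590 in NC against 1733, 1733 and 1790 under the CTCF-OE label (2535 ± 48.2 against 1752 ± 32.7, SD, n = 3). The groups stood far apart, by -0.53 on the log2 scale (adjusted p = 0.00188 in limma, standard error 0.035). DUSP1, a phosphatase that turns off MAP kinases, gave 231, 251.8 and 258 against 188, 186.5 and 186 (-0.40, adjusted p = 0.0132), and lost its call without the second NC array (0.0555) or without CTCF-OE array 1, 2 or 3 (0.0759, 0.0741 and 0.0687). PLAUR, the receptor for urokinase, gave 1985, 2125 and 2008 against 1594, 1697 and 1704 (-0.29, adjusted p = 0.0288), and this call was lost whichever array was left out (0.0715 to 0.112). The fall of IL6 and that of ATF3 passed whichever array was left out. GJA1, the gap junction protein connexin, read 60.4, 57.9 and 59.4 against 76.2, 73.1 and 74, a rise of 0.33 (adjusted p = 0.00987) that was not seen in the mean over its probe sets (0.02, adjusted p = 0.874) and lost its call without CTCF-OE array 1, 2 or 3 (0.0655, 0.0583 and 0.0596). The other two of the list that passed, named here after their values were seen, were IL11 at -0.26 (adjusted p = 0.0243) and MMP1, a collagenase, at 0.18 (adjusted p = 0.0451). The remaining 23 of the 29 did not pass, and with 1 array left out the 4 lists together held 2 to 3 genes that were lower and 0 to 1 that were higher.

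**Figure D4:**
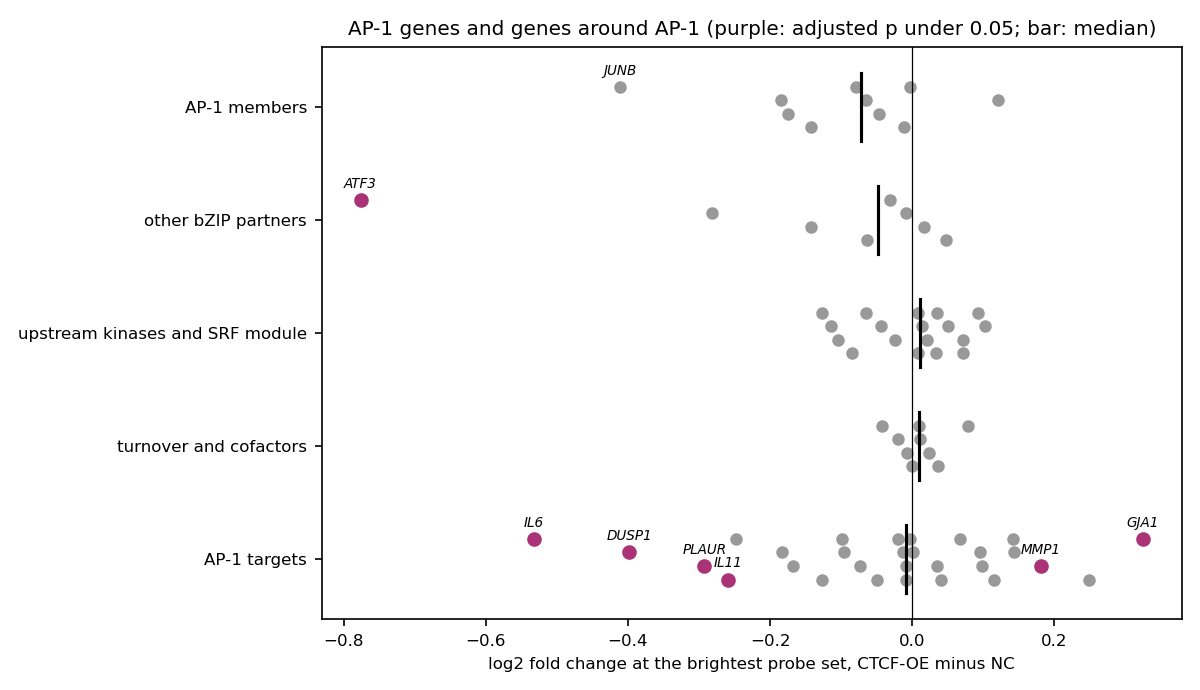
Log2 fold change (CTCF-OE minus NC, horizontal axis) of the 10 AP-1 genes and of the genes in 4 lists around AP-1, each gene at its brightest probe set, with a bar at each list's median. ATF3 lies farthest to the left at -0.78, the 18 upstream genes lie between -0.13 and 0.10, and the AP-1 targets spread from IL6 at -0.53 to GJA1 at 0.33.

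Finally, the genes whose pattern over the 6 arrays was most like that of JUNB were listed among 15297 genes outside the dimmest 20%. The 5 closest were ARHGAP42, EEIG1, SLC71A1, RRAGD and FAM107B, with Pearson correlations of log2 values from 0.995 to 0.999. In all, 220 genes had a correlation with JUNB above 0.95. Each of the 5, like JUNB, was lower without overlap in the arrays labelled CTCF-OE and highest in the third NC array, and none passed the test (adjusted p from 0.0574 for FAM107B to 0.26 for RRAGD in limma). The correlation is a description over 6 arrays, and these shared features follow from choosing the genes by it.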

How the data were processed

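RNA from MDA-MB-231 cells of 2 groups, NC and CTCF-OE, was extracted with Trizol and hybridized as biotinylated cRNA to Affymetrix PrimeView arrays, 3 per group. The deposited values are linear probe set intensity values that the authors had already scaled between arrays, and the software, background correction and normalization are not given in the sources used here. A scaling of this kind hides a change shared by most transcripts. Groups were taken from the sample labels, which do not say whether the 3 samples of a group were separate cultures, so a p-value reflects no more than the spread among the samples at hand, which may be technical. The number of arrays limits the precision.

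Of 49395 rows, 102 control probe sets were left out. GEO's platform annotation, which can be old, gave 44988 probe sets 1 symbol, 1832 several and 2473 none, and genes were named only from those with 1. Gene positions and promoters came from RefSeq on GRCh38.p14. Values were tested as log2(intensity + 1) in R 4.3.3 with limma 3.58.1 (lmFit and eBayes, 1 coefficient for CTCF-OE minus NC), with Benjamini-Hochberg adjustment over all 49293 probe sets or, at 1 probe set a gene (the brightest), over 18132 genes. The scripts were tested on simulated data. Pairs of genes were compared by an exact permutation test. Figures were drawn with matplotlib 3.10.9.

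The members and lists were chosen with earlier results of these data known, JUNB's among them. The text names all members, CTCF, up to 4 genes per list with the largest change among those that passed, and the 5 genes most like JUNB. Some genes of the lists were not analysed here and are not reported. Alternatives covered the pseudocount, normalization, filters on dim probe sets, an intensity trend, a replicate block, the mean over a gene's probe sets, probe sets with cross-hybridizing names and leaving out each array.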

Additional observations from a re-analysis of the deposited data

How the results depend on the processing

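Calls among the AP-1 subunits depended on the settings, while most directions did not. Against 1 AP-1 probe set lower, limma called 5 with a pseudocount of 16, 2 after quantile normalization, 3 without the dimmest 20%, 5 without those under the median intensity, 7 with an intensity trend, 11 unadjusted and 0 to 2 with 1 array left out, and against 0 higher it called 1 unadjusted. Of the 27 probe sets 14 were lower without overlap, and 7 of the 15 left without the _s_at and _x_at ones. Against 0 of the 10 genes lower, it called 3, 1, 2, 3 and 3 in the same order up to the trend, 5 unadjusted, 2 with the mean over a gene's probe sets and 0 to 1 with 1 array left out, and 1 higher unadjusted. In the 4 lists, against 5 lower, it called 8 with a pseudocount of 16, 9 without those under the median intensity, 10 with the trend, 11 unadjusted, 9 with the mean and 2 to 3 with 1 array left out. Against 2 higher, it called 4 with the trend, 4 unadjusted, 1 with the mean and 0 to 1 with 1 array left out. Over all probe sets, against 628 lower and 396 higher, it called 1272 and 963 with a pseudocount of 16, 1769 and 1407 without those under the median intensity, 1902 and 1560 with the trend, 4363 and 4039 unadjusted, 115 to 257 and 33 to 127 with 1 array left out, and 633 higher without the dimmest 20%. The cause of these shifts was not tested.

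JUNB stood at -0.381 with a pseudocount of 16, at -0.402 after quantile normalization and at -0.412 with either dim filter or the trend, and it passed under each of these. It stayed between -0.467 and -0.319 with 1 array left out (adjusted p 0.042 without the third NC array and 0.0777 to 0.177 without any other), and its adjusted p was 0.0593 with no pseudocount and 0.0624 with median centring. Differences near 0 changed sign, all without passing: BATF3 at 0.0071 after quantile normalization, 0.0022 after median centring and -0.0447 to 0.0288 with 1 array left out, JUND at -0.069 to 0.0227, 1 probe set of FOSL1 at -0.0181 to 0.0107 and 1 of FOSL2 at -0.0847 to 0.00829 with 1 array left out, and FOSB at -0.0107 with the mean over its probe sets.

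Over all values for single probe sets, genes and pairs of genes under all alternatives, 33 passed where the main one had not, 22 no longer passed, 19 changed sign and 575 did none of these. The pairs could not pass at this number of arrays, and a member's brightest probe set counts in both fits. The deviations of same-numbered arrays correlated at 0.012, 0.0054 and 0.0094, so the values showed no pairing by number. The labels do not say whether same-numbered samples were handled together. With the replicate number as a block, 0 AP-1 probe sets were lower, the FOSL2 probe set that fell stood at -0.33 (adjusted p = 0.0842; -0.349 to -0.313 with 1 array left out), JUNB at an adjusted p of 0.111, the lists had 2 lower and 0 higher, and all probe sets 62 lower and 11 higher. Whether the dimmest probe sets, such as those of BATF2, exceed background was not tested.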
